A study of Homo sapiens with 19 samples.

Results

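NT5E and 7 further genes that make, clear, carry or sense adenosine were followed in HepG2 cells, a line grown from a human liver cancer, after knockdown of YAP1, of TAZ (gene symbol WWTR1) or of both. The 8 genes are NT5E, ENTPD1, ADA, ADK, ADORA1, ADORA2B, SLC29A1 and SLC29A2, out of 25579 genes on the arrays, and each was measured by 1 probe set. They were listed by their role. NT5E itself was chosen by its measured differences from control, which were above 0 although it is listed among YAP and TAZ targets, so these differences are given below as a description without a test. Each target was lowered with siRNAs, small double-stranded RNAs that lead to loss of a matching mRNA, delivered with a lipid reagent, and RNA was taken 24 h after transfection. A nonsense siRNA served as control (n = 3). Against YAP1 stood siYAP1 (n = 3) or siYAP2 (n = 3). The other groups were siTAZ2 (n = 3) and siTAZ3 (n = 2) against TAZ, and the pairs siTAZ2_siYAP1 (n = 3) and siTAZ3_siYAP2 (n = 2). Single siRNAs were used at 20 nM and pairs at 40 nM in total, so the total dose differs between paired and TAZ groups, and the control's dose was not clear from the series' texts. Knockdown was transient in 1 cell line, no untreated cells were analysed here, and the labels do not say whether the arrays of a group came from separate cultures. The p-values therefore reflect the spread between these arrays alone, which may be technical. On GRCh38.p14 the NT5E gene lies at chr6:85450083-85495784.

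Extracellular adenosine is a signal made from released ATP. On the cell surface ENTPD1 (CD39) converts ATP and ADP to AMP, and NT5E (CD73, the ecto-nucleotidase anchored to the membrane by a lipid) converts AMP to adenosine. The equilibrative transporters SLC29A1 (ENT1) and SLC29A2 (ENT2) carry the nucleoside across the plasma membrane. Inside the cell ADK, adenosine kinase, returns adenosine to AMP, and ADA, adenosine deaminase, converts it to inosine. The receptor encoded by ADORA1 lowers cyclic AMP and the one encoded by ADORA2B, which needs more adenosine to respond, raises it. YAP and TAZ are transcriptional co-activators of the Hippo pathway that reach DNA mainly through TEAD factors.

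NT5E was set beside 2 widely used YAP and TAZ target genes that fell after combined knockdown, CCN2 and ANKRD1, for the TEAD core motif GGAATG, searched on both strands of the 300 bases from 250 before to 50 after the start listed in the promoter table. The sequences are those of RefSeq for GRCh38.p14, used for sequence only, and run 5′ to 3′ along the gene's own strand. CCN2 lies at chr6:131951323-131951622 on the minus strand and ANKRD1 at chr10:90921038-90921337 on the minus strand, and capitals mark GGAATG in both. NT5E lies at chr6:85449833-85450132 on the plus strand and ADORA2B at chr17:15944880-15945179 on the plus strand, and capitals there mark TGACG, the core of the cyclic AMP response element, which does not overlap another searched motif in either.
CCN2: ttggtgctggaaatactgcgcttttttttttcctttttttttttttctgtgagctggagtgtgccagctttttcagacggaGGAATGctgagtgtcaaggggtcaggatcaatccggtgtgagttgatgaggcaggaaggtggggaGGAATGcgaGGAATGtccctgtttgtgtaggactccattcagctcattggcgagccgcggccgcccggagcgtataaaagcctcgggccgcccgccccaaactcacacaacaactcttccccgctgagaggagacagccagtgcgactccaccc
ANKRD1: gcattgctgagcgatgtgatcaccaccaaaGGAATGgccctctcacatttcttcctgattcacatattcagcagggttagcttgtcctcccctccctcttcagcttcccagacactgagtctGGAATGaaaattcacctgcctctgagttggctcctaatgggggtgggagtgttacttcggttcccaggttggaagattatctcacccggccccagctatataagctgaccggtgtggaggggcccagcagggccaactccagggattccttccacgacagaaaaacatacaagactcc
NT5E: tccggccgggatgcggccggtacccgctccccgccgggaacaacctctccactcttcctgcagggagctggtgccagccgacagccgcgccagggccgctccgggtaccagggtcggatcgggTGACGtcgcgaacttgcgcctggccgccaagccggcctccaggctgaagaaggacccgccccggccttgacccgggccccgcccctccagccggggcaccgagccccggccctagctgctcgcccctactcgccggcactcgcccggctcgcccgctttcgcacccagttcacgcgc
ADORA2B: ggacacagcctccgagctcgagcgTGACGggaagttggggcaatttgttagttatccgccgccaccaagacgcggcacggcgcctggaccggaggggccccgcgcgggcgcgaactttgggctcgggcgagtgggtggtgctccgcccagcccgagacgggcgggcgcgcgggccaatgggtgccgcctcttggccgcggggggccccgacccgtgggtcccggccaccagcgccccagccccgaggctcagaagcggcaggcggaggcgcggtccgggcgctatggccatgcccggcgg
The CCN2 window held 3 GGAATG motifs, which began 169, 104 and 95 bases before the start, and the ANKRD1 window held 2, which began 220 and 128 bases before it. The NT5E window held 0, and the ADORA2B window held 0. GGAATG was present in 14% of all 35116 promoter windows. It was in 9 of the 17 windows (52.9%) of the 15 other listed YAP and TAZ targets that matched the table. The window of MYOF, a listed target that also fell after combined knockdown, held 0. Among the members, 7 matched with 13 windows, and 1 window, of ADK, held the motif. NT5E and ADORA2B each held 1 TGACG, which began 127 and 226 bases before the start. That motif was present in 24.6% of all windows, and the HIF core ACGTG (21.4% of all windows) and the AP-1 motif TGANTCA (7.71%) were in neither. These matches describe letters in a short window and no binding was measured.

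In all results below, a gene passed, rose or fell where its Benjamini-Hochberg adjusted p in limma over all 25579 genes was under 0.05. In bulk RNA, fewer cells of a kind and less RNA per cell cannot be told apart. Values are log2 RMA values, in which 1 unit is a 2-fold difference, and levels of different probe sets are not compared with each other. Both targets were lowered: YAP1 retained between 15.1% and 23.4% of its control level in the 4 groups given a YAP1 siRNA, and WWTR1 between 10.5% and 19.7% in the 4 groups given a TAZ siRNA. Against control, YAP1 also differed by -0.32 after TAZ knockdown (SE 0.075, limma adjusted p = 0.0367), which passed. WWTR1 differed by -0.36 after YAP knockdown (SE 0.092, limma adjusted p = 0.0671), which did not pass. The array labelled siTAZ2 replicate 3 stood apart, with a median correlation of 0.9866 with the other arrays against at least 0.9927 for each other array, and many results that it touches are given without it as well. Its YAP1 value was the lowest of the siTAZ2 arrays (9.42 against 9.67 and 9.70), and the YAP1 difference after TAZ knockdown is given with it alone. Control and YAP arrays had been deposited earlier than the TAZ and paired arrays, so a difference between deposits and an effect of the siRNA cannot be told apart where TAZ or paired groups are set against control. The YAP groups against control, and the paired groups against TAZ alone, lie within 1 deposit. Of 7 measured hepatocyte markers, ALB (mean 13.3), APOB (13.5) and AFP (12.8) were among the brightest genes, while the leukocyte markers PTPRC (3.44) and CD3E (3.60) lay below the array median of 4.83. Of the other markers of foreign cell types, VWF (4.18) and PECAM1 (3.94) were below it too and COL1A1 (6.64) was above it. Of the hepatocyte markers FGB, fibrinogen beta chain, alone rose after TAZ knockdown (0.41, SE 0.066, limma adjusted p = 0.00333) and after combined knockdown (0.34, SE 0.066, limma adjusted p = 0.00864). With the array that stood apart left out, TTR, transthyretin, passed in both as well (0.25 in each, limma adjusted p = 0.0404 and 0.0317). Of the pairs, TTR then passed with siTAZ3_siYAP2 (0.36, limma adjusted p = 0.0116) and not with siTAZ2_siYAP1 (0.13, limma adjusted p = 0.451). It passed with neither siTAZ2 nor siTAZ3 (limma adjusted p = 0.168 and 0.0624). In that fit FGB differed by 0.44 after TAZ knockdown (limma adjusted p = 0.00105) and by 0.34 after combined knockdown (limma adjusted p = 0.00343). The part of these markers in the results on the 8 genes was not tested.

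NT5E was higher than control in every siRNA group, by 0.31 to 1.08 on the log2 scale. The control arrays read 6.54, 6.63 and 6.74. The siYAP1 arrays read 7.44, 7.46 and 7.34, and the siYAP2 arrays read 7.03, 6.83 and 6.98. All 6 YAP arrays were above all 3 control arrays, and the siYAP2 arrays lay between control and siYAP1 without overlapping either. The siTAZ2 arrays read 7.33, 7.38 and 8.04, of which the last, the highest of all 19, is the array that stood apart. The siTAZ3 arrays read 7.66 and 7.76. The siTAZ2_siYAP1 arrays read 7.39, 7.27 and 7.78 and the siTAZ3_siYAP2 arrays read 7.64 and 7.52, overlapping or below the groups given a TAZ siRNA alone. All 16 siRNA arrays were thus above the highest control array, a pattern shown by 0.641% of all genes. NT5E was chosen for its rise against control, so this share is no test of it.

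**Figure D1:**
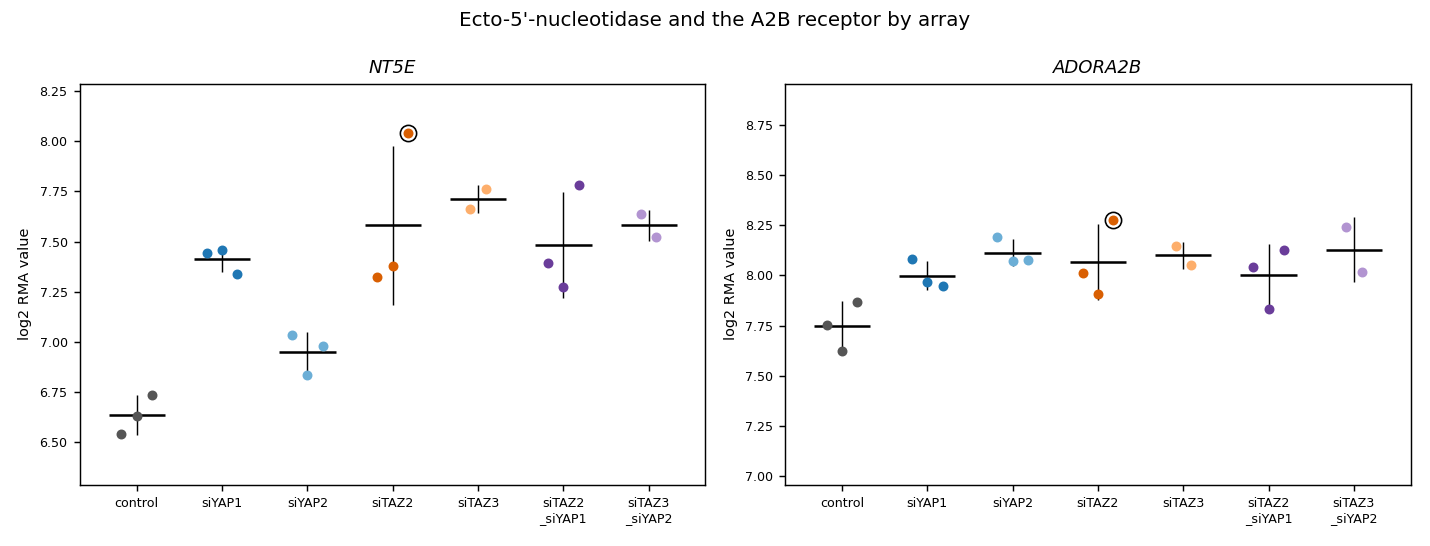
Log2 RMA values of NT5E and ADORA2B on each of the 19 arrays by group. Points are arrays, horizontal lines are group means, vertical lines are 1 SD, both panels span 2 log2 units, and the ringed point is siTAZ2 replicate 3. For NT5E the siYAP2 arrays (6.83 to 7.03) lie between control (6.54 to 6.74) and the other siRNA groups, and for ADORA2B 1 siTAZ2_siYAP1 array (7.83) lies below the highest control array (7.87).

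In ascending order the NT5E group means were 6.63 ± 0.0983 (SD, n = 3) in control, 6.95 ± 0.1025 (SD, n = 3) with siYAP2, 7.41 ± 0.0647 (SD, n = 3) with siYAP1, 7.48 ± 0.266 (SD, n = 3) with siTAZ2_siYAP1, 7.58 ± 0.0787 (SD, n = 2) with siTAZ3_siYAP2, 7.58 ± 0.398 (SD, n = 3) with siTAZ2 and 7.71 ± 0.0691 (SD, n = 2) with siTAZ3. Neighbours in this order overlapped from siYAP1 upward. Without the array that stood apart the siTAZ2 mean was 7.35 ± 0.0373 (SD, n = 2), the third in the order and below siYAP1. As a description, NT5E was 1.72-fold higher than control with siYAP1, 1.24-fold with siYAP2, 1.93-fold with siTAZ2 (1.64-fold without the array that stood apart) and 2.11-fold with siTAZ3. With the pairs it was 1.80-fold higher for siTAZ2_siYAP1 and 1.93-fold for siTAZ3_siYAP2. The mean over both TAZ siRNAs was 1.01 above control (SE 0.14), and 0.90 (SE 0.097) without the array labelled siTAZ2 replicate 3. Ranked from the highest difference among 25579 genes, NT5E was at place 8 for TAZ knockdown, 20 for combined knockdown and 65 for YAP knockdown. These places come from the values by which NT5E was chosen and test nothing.

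The siRNAs against 1 target were compared with each other. This difference was not itself used to choose NT5E, but the same arrays showed the rise by which it was chosen. siYAP1 and siYAP2 left almost the same YAP1 level, 15.1% and 15.3% of control. NT5E was 0.47 higher with siYAP1 than with siYAP2 (SE 0.16, 95% interval 0.13 to 0.80), which did not pass in limma (adjusted p = 0.132), although the 3 arrays of each did not overlap, as in 10.6% of all genes in this direction. When the array labelled siTAZ2 replicate 3 was left out, which acts here through the pooled spread alone, the same difference passed (limma adjusted p = 0.00943), and over all alternatives its adjusted p in limma lay between 0.00698 and 0.38. NT5E differed by -0.13 between siTAZ2 and siTAZ3 (SE 0.17, 95% interval -0.50 to 0.24, limma adjusted p = 0.936), and by -0.36 (limma adjusted p = 0.167) without that array. Between the pairs siTAZ2_siYAP1 and siTAZ3_siYAP2 it differed by -0.10 (SE 0.17, 95% interval -0.47 to 0.27, limma adjusted p = 0.976). Of the 8 genes, 0 passed between siYAP1 and siYAP2, where 4.83% of all genes did, 0 between siTAZ2 and siTAZ3 (0.813%) and 0 between the pairs (2.48%). At an unadjusted p under 0.05 in limma NT5E alone of the 8 was counted between the YAP siRNAs (14.1% of all genes), none between the TAZ siRNAs (8.73%), and ADORA1 alone between the pairs (10.6%).

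Paired and TAZ knockdown were compared to see what a YAP1 siRNA adds to a TAZ siRNA. Paired minus TAZ knockdown was -0.12 for NT5E (SE 0.12), and -0.00049 (SE 0.086) without the array labelled siTAZ2 replicate 3. Of the 21 other listed YAP and TAZ targets, 7 fell in this comparison and 0 rose, beside 0.622% of all genes lower, with a median of -0.135 against 0.00667 for all genes. ANKRD1, a cardiac ankyrin repeat gene, fell by 1.92 (SE 0.13, limma adjusted p = 2.01e-06), CCN2 by 1.21 (SE 0.19, limma adjusted p = 0.00688), CCN1 by 0.93 (SE 0.097, limma adjusted p = 0.000225) and MYOF, a membrane repair gene, by 0.44 (SE 0.080, limma adjusted p = 0.0166). Leaving out siTAZ2 replicate 3 gave -1.79 for ANKRD1, -0.99 for CCN2, -0.97 for CCN1 and -0.42 for MYOF. All of these passed (limma adjusted p at most 0.0207). With only the TAZ and paired arrays in the fit, the calls of CCN2 and MYOF were lost. That of CCN2 was also lost without siTAZ3_siYAP2 replicate 2, and that of MYOF without siTAZ3 replicate 1, siTAZ3 replicate 2 or siTAZ3_siYAP2 replicate 1. Against control, of these 21 genes 1 fell after YAP knockdown (0.993% of all genes were lower), 4 after TAZ knockdown (0.841%) and 7 after combined knockdown (1.29%), and 0 rose in any of the 3 comparisons, which share their control arrays. Without the array labelled siTAZ2 replicate 3 these counts were 2 lower and 1 higher, 8 lower, and 11 lower and 1 higher, where 2.2%, 2.34% and 3.14% of all genes were lower. The higher gene was GADD45A after YAP and after combined knockdown (0.23 in each), where 2.27% and 3.03% of all genes were higher. NT5E, which was chosen by such values, was the listed target with the highest value in all 3. Between siYAP1 and siYAP2, 3 of the 21 passed (MYOF, ANKRD1 and AXL), where 4.83% of all genes did. AXL alone passed between siTAZ2 and siTAZ3 (0.813% of all genes) and CCN2 alone between the pairs (2.48%). ANKRD1 differed from control by 0.01 with siYAP1 and by -0.68 with siYAP2. Without the array labelled siTAZ2 replicate 3, CCN2 differed from control by -1.12 with siTAZ2 and by 0.27 with siTAZ3.

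**Figure D2:**
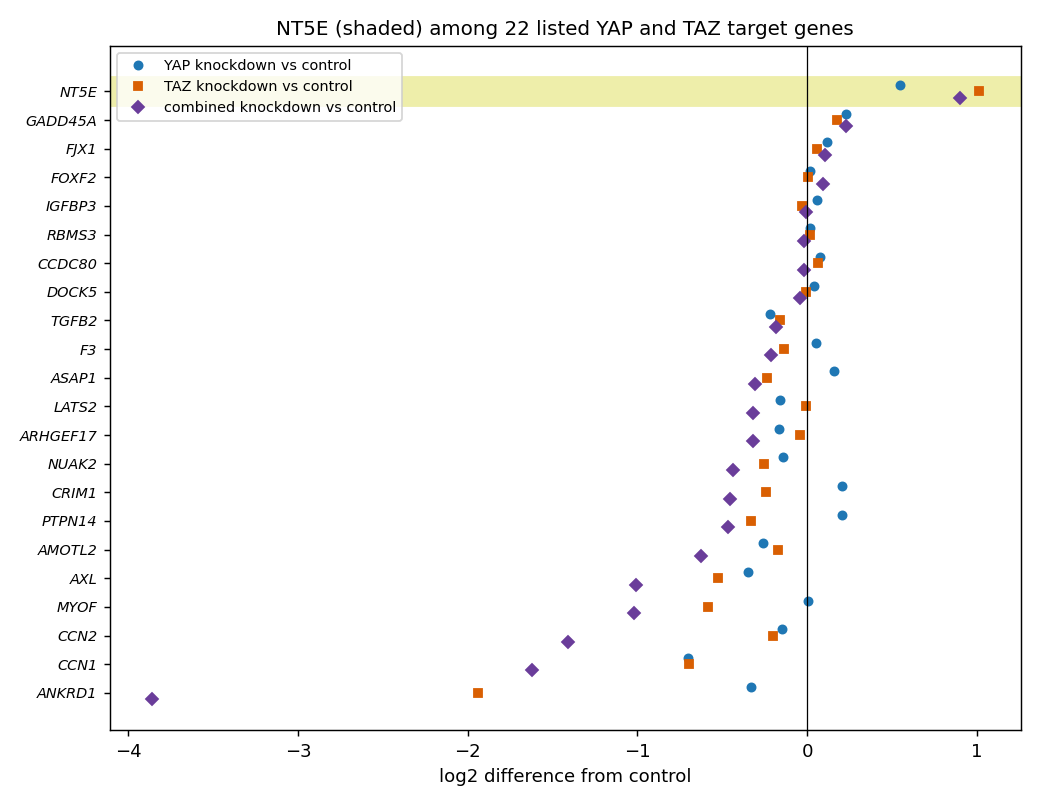
Log2 difference from control of the 22 listed YAP and TAZ target genes after YAP, TAZ and combined knockdown, each the mean of both siRNAs or pairs, ordered by the combined value. NT5E (shaded) lies at 0.55, 1.01 and 0.90, and ANKRD1 at the other end at -0.33, -1.94 and -3.86. The ANKRD1 value for YAP knockdown joins 0.01 with siYAP1 and -0.68 with siYAP2.

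ENTPD1, which supplies the AMP that NT5E uses, was near the floor of the arrays. Its values lay between 3.66 and 4.04 on all 19 arrays, below the array median of 4.83, and 21.2% of genes had a lower mean. It is not shown to be above background, and its differences of 0.09 (YAP), 0.05 (TAZ) and 0.10 (combined) from control did not pass in limma (adjusted p = 0.793, 0.904 and 0.691). Its TAZ value was 0.06 (limma adjusted p = 0.834) without the array that stood apart.

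ADORA2B was the member besides NT5E with the largest differences from control for YAP, TAZ and combined knockdown, and its mean was above control in all 6 siRNA groups. The control arrays read 7.75, 7.62 and 7.87. The siYAP1 arrays read 8.08, 7.96 and 7.95 and the siYAP2 arrays 8.19, 8.07 and 8.08, all above control. The siTAZ2 arrays read 8.01, 7.91 and 8.28 and the siTAZ3 arrays 8.15 and 8.05, also all above control, as in 4.47% of all genes. The siTAZ2_siYAP1 arrays read 8.04, 7.83 and 8.13, which overlapped control, and the siTAZ3_siYAP2 arrays read 8.24 and 8.02. From siYAP1 upward no neighbouring groups in the order of means were separated. The difference from control was 0.31 for YAP knockdown (SE 0.0879, 1.24-fold, limma adjusted p = 0.114), 0.33 for TAZ knockdown (SE 0.0915, limma adjusted p = 0.0849) and 0.32 for combined knockdown (SE 0.0915, limma adjusted p = 0.0952), so it did not pass in any of the 3. Without the array labelled siTAZ2 replicate 3 it passed for YAP (limma adjusted p = 0.0289) and combined knockdown (limma adjusted p = 0.0248) and not for TAZ (0.28, limma adjusted p = 0.0673), and the TAZ value passed without siTAZ2 replicate 2 (0.37, limma adjusted p = 0.0478). Among single groups, leaving out replicate 3 of siTAZ2 made it pass with siYAP2 (0.37, limma adjusted p = 0.0171) and siTAZ3_siYAP2 (0.38, limma adjusted p = 0.0313). The alternatives ranged from 0.0192 to 0.502 for YAP, from 0.0309 to 0.349 for TAZ and from 0.0248 to 0.391 for combined knockdown as limma adjusted p. Paired and TAZ knockdown differed by -0.02 for ADORA2B (SE 0.080, 95% interval -0.19 to 0.15, limma adjusted p = 0.968).

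ADORA1 lay between 4.68 and 5.67 over the 19 arrays, with a mean of 5.15 near the array median. Its group means ran from 4.93 ± 0.29 (SD, n = 3) with siYAP1 to 5.42 ± 0.26 (SD, n = 3) with siTAZ2_siYAP1, and control lay at 5.09 ± 0.12 (SD, n = 3). Neither end was outside the spread in limma, with -0.16 for siYAP1 (adjusted p = 0.856) and 0.33 for siTAZ2_siYAP1 (adjusted p = 0.365) against control. The remaining adenosine receptors ADORA2A (mean 4.30) and ADORA3 (4.15) were below the array median.

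The 2 transporters differed from control by less than NT5E in every group. SLC29A1 read 8.79, 8.71 and 8.70 in control and 8.65 to 8.79 on the 6 YAP arrays. It read 8.92, 8.74 and 8.28 with siTAZ2, the last being the array that stood apart and the lowest of all, and 8.87 and 8.75 with siTAZ3. On the paired arrays it lay between 8.72 and 8.90. The difference from control was -0.01 for YAP (SE 0.10, 95% interval -0.23 to 0.20), -0.0036 for TAZ (SE 0.10, 95% interval -0.22 to 0.22) and 0.09 for combined knockdown (SE 0.10, 95% interval -0.13 to 0.32), with limma adjusted p = 0.993, 0.997 and 0.879. Without that array the TAZ value was 0.09 (limma adjusted p = 0.607). SLC29A2 was the only member whose mean was below control in all 6 siRNA groups, by 0.05 to 0.25, at 4.79 to 5.44 over all arrays and so near the array median. The control arrays read 5.44, 5.10 and 5.07, and control replicate 1 was the highest of all 19. Its differences of -0.18 (YAP), -0.19 (TAZ) and -0.09 (combined) did not pass in limma (adjusted p = 0.689, 0.585 and 0.899). The TAZ value of SLC29A2 was -0.17 (limma adjusted p = 0.591) without the array that stood apart.

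The enzymes that clear adenosine inside the cell had group means spanning 0.19 (ADK) and 0.26 (ADA). ADK read 10.24, 10.21 and 10.30 in control and 10.31 to 10.45 on the 6 YAP arrays, all just above control. Its highest value, 10.71, was on the array labelled siTAZ2 replicate 3. The differences from control were 0.12 for YAP (SE 0.077, limma adjusted p = 0.736), 0.14 for TAZ (SE 0.080, limma adjusted p = 0.596) and 0.07 for combined knockdown (SE 0.080, limma adjusted p = 0.888), and 0.07 for TAZ (limma adjusted p = 0.647) without that array. ADA lay between 5.05 and 5.70, with control at 5.43 ± 0.20 (SD, n = 3), and its groups overlapped throughout the order of means. Its differences from control were 0.14 (YAP), 0.03 (TAZ) and -0.0031 (combined), with limma adjusted p = 0.898, 0.98 and 0.998, and the TAZ value was 0.11 (limma adjusted p = 0.816) once the array that stood apart, the lowest for ADA, was left out.

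**Figure D3:**
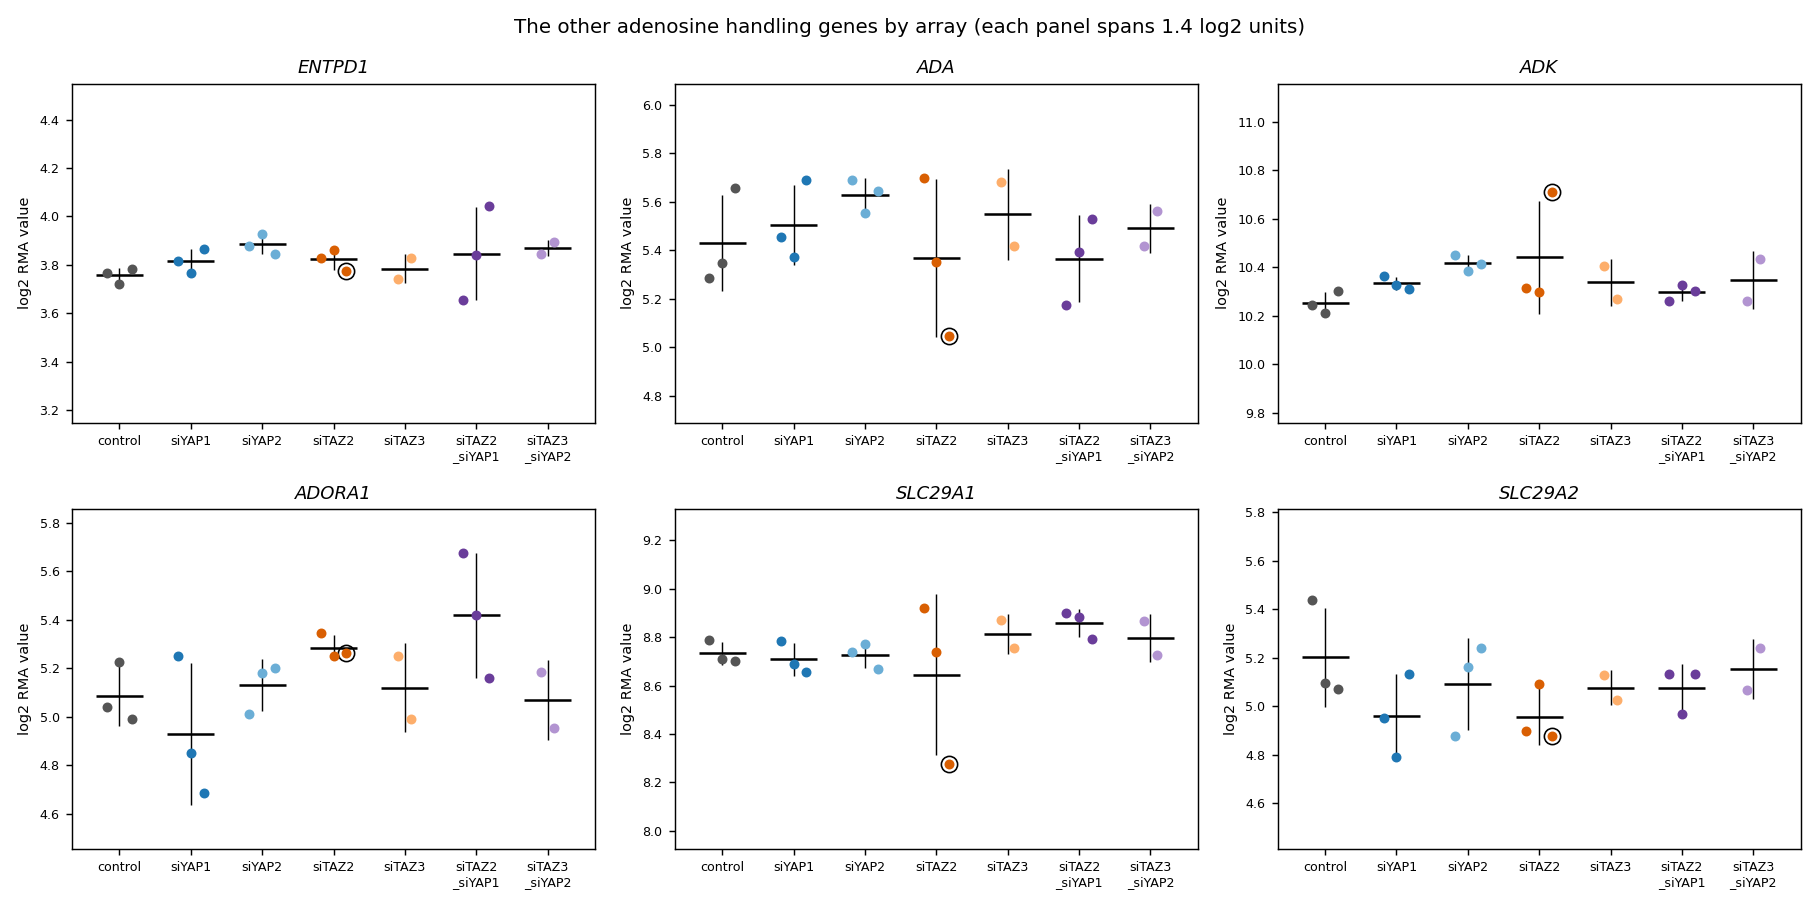
Log2 RMA values of ENTPD1, ADA, ADK, ADORA1, SLC29A1 and SLC29A2 on each array by group, drawn on panels of equal height. Points are arrays, horizontal lines are group means, vertical lines are 1 SD, and the ringed array, siTAZ2 replicate 3, is the highest for ADK (10.71) and the lowest for ADA (5.05) and SLC29A1 (8.28).

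Taking the 7 genes other than NT5E together, 0 passed in limma after YAP knockdown (1.73% of all genes passed), 0 after TAZ knockdown (1.97%), 0 after combined knockdown (2.59%) and 0 on adding a YAP1 siRNA to a TAZ siRNA (0.747%). At an unadjusted p under 0.05 in limma ADORA2B alone of the 7 was counted after YAP (9.58% of all genes), TAZ (11.4%) and combined knockdown (11.6%), and none in the last comparison (9.99%). For single groups against control 0 of the 7 passed as well, where 0.88% of all genes passed with siYAP1, 3.72% with siYAP2, 2.37% for siTAZ2 and 1.16% for siTAZ3. The shares for the pairs were 2.44% in siTAZ2_siYAP1 and 2.66% in siTAZ3_siYAP2. At an unadjusted p under 0.05 in limma, ADORA2B was counted in each of these 6 groups, ADK with siTAZ2 and ADORA1 with siTAZ2_siYAP1. The share of all genes at that p was 9.1% for siYAP1, 11.5% for siYAP2, 12.6% for siTAZ2 and 8.91% for siTAZ3. For the pairs it was 11.1% (siTAZ2_siYAP1) and 10.9% (siTAZ3_siYAP2). With the array labelled siTAZ2 replicate 3 left out, ADK differed from control by 0.05 with siTAZ2 (SE 0.061, limma adjusted p = 0.831). The median difference of the 7 was 0.09 for YAP, 0.05 for TAZ and 0.09 for combined knockdown, and the median over all genes was in each case at most 0.00468. ADORA2B and ADK were the members besides NT5E whose 6 YAP arrays were all above the 3 control arrays, as in 3.5% of all genes. NT5E, ENTPD1, ADK and ADORA2B had a mean above control in each of the 6 siRNA groups, as in 12.6% of all genes, and these 6 comparisons share the control arrays.

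**Figure D4:**
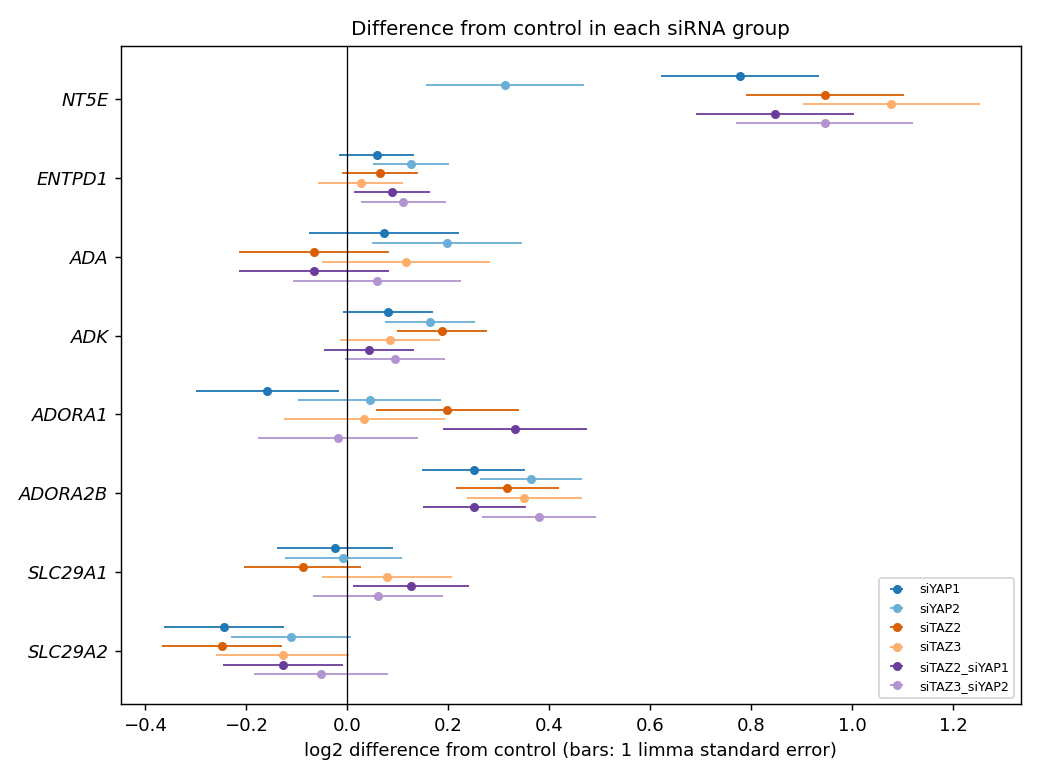
Log2 difference from control of the 8 genes in each siRNA group. Points are limma estimates, bars are 1 standard error, and the line marks no difference. NT5E ranges from 0.31 to 1.08 and ADORA2B from 0.25 to 0.38, while the other 6 genes lie between -0.25 and 0.33.

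Genes around the same pathway were taken from fixed lists. Of 20 genes listed for nucleotide hydrolysis outside cells or in the secretory system, 1 fell after YAP knockdown (0.993% of all genes were lower), 1 rose after TAZ knockdown (1.13% were higher) and 2 rose after combined knockdown (1.29% were higher). The list also holds genes that do not encode nucleotide hydrolases, such as DPP4 and ADA2. On adding a YAP1 siRNA to a TAZ siRNA 0 passed (0.747% of all genes did). At an unadjusted p under 0.05 in limma 1 was counted there (9.99% of all genes). When the array that stood apart was left out, ENTPD4 (0.22, limma adjusted p = 0.0438) and ENPP2 (0.26, limma adjusted p = 0.0409) also rose after YAP knockdown and ENPP2 after combined knockdown (0.35, limma adjusted p = 0.00514). ENTPD4 and ENPP2 then passed with siYAP2 (0.32 and 0.34, limma adjusted p = 0.00769 and 0.013). Neither passed with siYAP1 (0.12 and 0.17, limma adjusted p = 0.467 and 0.329). In that fit 2.27% of all genes were higher after YAP and 3.03% after combined knockdown. ENPP1, which splits ATP into AMP and pyrophosphate, rose by 0.27 after TAZ knockdown (SE 0.064, limma adjusted p = 0.0401) and by 0.28 after combined knockdown (SE 0.064, limma adjusted p = 0.0259). Its TAZ value was 0.23 (limma adjusted p = 0.0111) without the array that stood apart. Its control arrays read 10.51, 10.43 and 10.45, and its 10 arrays with a TAZ siRNA read 10.62 to 10.94, without overlap. Of all genes, 4.47% had all TAZ arrays above control and 5.26% had all paired arrays above it. The share for the 10 arrays together was not counted. The TAZ call of ENPP1 was lost without the dimmest 30% of genes, when the fit held just the control and TAZ groups and in 12 and the combined call in 7 of 19 fits each lacking 1 array. ENPP3, a related ecto-enzyme, rose by 0.22 after combined knockdown (SE 0.049, limma adjusted p = 0.0213), a call lost in 4 of these fits, with an intensity trend in the variance and without the dimmest 30% of genes. Of the 2 pairs, ENPP3 passed with siTAZ2_siYAP1 and not with siTAZ3_siYAP2. Without siTAZ2 replicate 3 these values were 0.33 (limma adjusted p = 0.000796) and 0.11 (limma adjusted p = 0.387). ENTPD7, an intracellular relative of ENTPD1, fell by 0.29 after YAP knockdown (SE 0.065, limma adjusted p = 0.0319), a call lost in 8 of the 19 fits lacking 1 array. That value joins 9.05 ± 0.061 (SD, n = 3) for ENTPD7 with siYAP2 and 9.58 ± 0.0068 (SD, n = 3) with siYAP1, which differed by 0.53 (SE 0.075, limma adjusted p = 0.000345), and the pair siTAZ3_siYAP2 lay at 9.60, the control level.

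Of 25 measured genes of intracellular AMP and adenosine metabolism, 1 fell after YAP (0.993% of all genes were lower), 1 after TAZ (0.841%) and 1 after combined knockdown (1.29%). On adding a YAP1 siRNA 1 fell (0.622%), and 0 rose in these 4 comparisons. Leaving out the array that stood apart added 1 gene, AMPD2, an AMP deaminase, which then rose after combined knockdown (0.30, limma adjusted p = 0.0229), as did 3.03% of all genes. AMPD2 then passed with siTAZ3_siYAP2 (0.34, limma adjusted p = 0.0416) and not with siTAZ2_siYAP1 (0.26, limma adjusted p = 0.0825). DCK, the kinase that phosphorylates deoxycytidine and deoxyadenosine, carried 3 of these calls. The DCK control arrays read 8.51, 8.66 and 8.64 and the siYAP1 arrays 8.71, 8.23 and 8.48, whereas the siYAP2 arrays read 6.52, 6.41 and 6.55. The siTAZ3_siYAP2 arrays read 7.04 and 7.33, and the siTAZ2_siYAP1 arrays 8.65, 8.49 and 8.46, so DCK was low on the 5 arrays that received siYAP2 and on no other. It was 4.32-fold lower than control with siYAP2 (SE 0.17 on the log2 scale, limma adjusted p = 1.13e-06), and differed from control by -0.13 with siYAP1 (limma adjusted p = 0.917). The combined call of DCK was lost without control replicate 2, control replicate 3 or siTAZ3_siYAP2 replicate 1, and its call between paired and TAZ knockdown with only those arrays in the fit. The YAP siRNAs differed by 1.98 for DCK (SE 0.17, limma adjusted p = 1.82e-06) and the pairs by 1.35 (SE 0.19, limma adjusted p = 0.000684). AK6, an adenylate kinase of the nucleus, fell by 0.48 after TAZ knockdown (SE 0.10, limma adjusted p = 0.0221), passing with siTAZ3 (-0.70, limma adjusted p = 0.0122) and not with siTAZ2 (-0.27, limma adjusted p = 0.328). The AK6 control arrays read 10.02, 10.19 and 10.06 and the siTAZ2 arrays 9.87, 10.10 and 9.51, of which the last is the array that stood apart. Without it AK6 differed by -0.11 with siTAZ2 (limma adjusted p = 0.716) and by -0.40 for TAZ knockdown (limma adjusted p = 0.00472). The AK6 call was lost in 5 of 19 such fits and when the fit held just the control and TAZ groups.

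**Figure D5:**
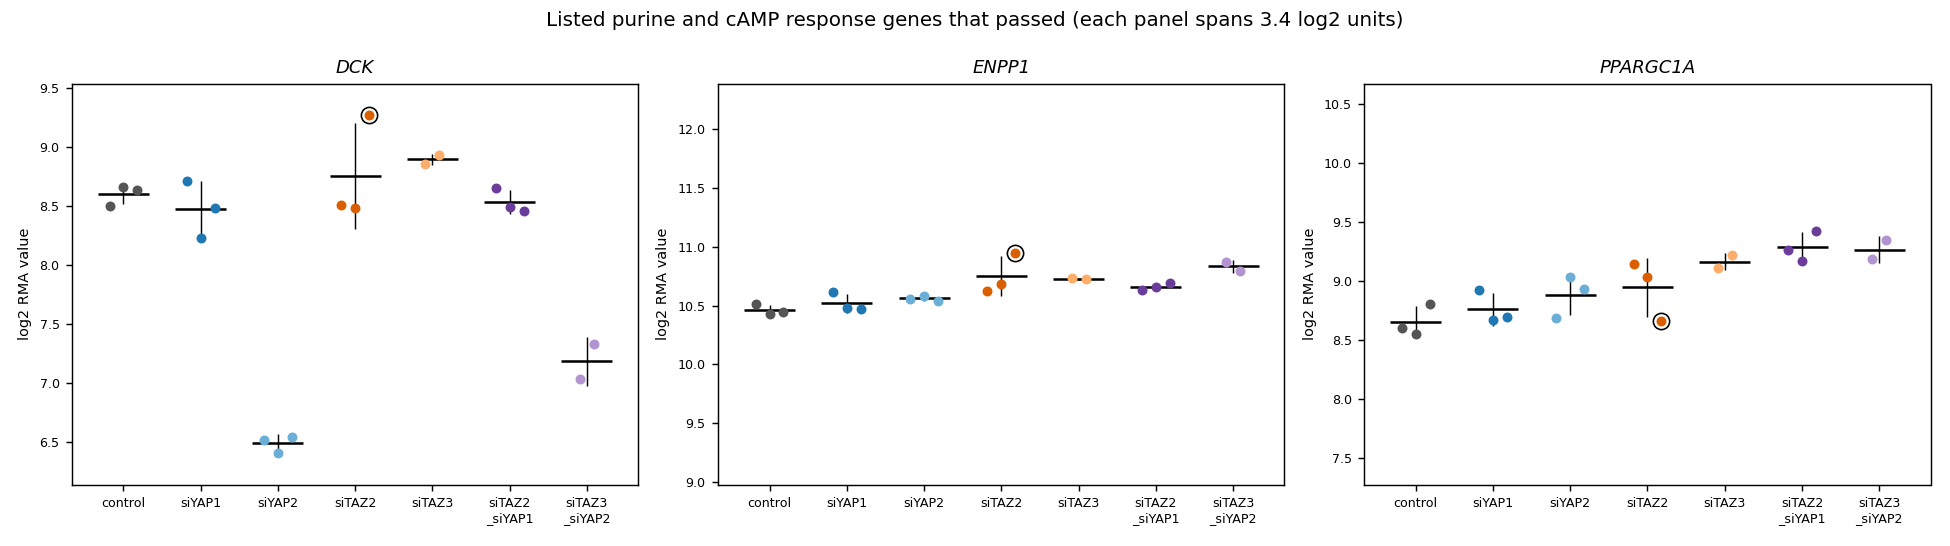
Log2 RMA values of DCK, ENPP1 and PPARGC1A on each array by group, on panels of equal height. Points are arrays, horizontal lines are group means, vertical lines are 1 SD, and the ringed point is siTAZ2 replicate 3. DCK lies between 6.41 and 7.33 on the 5 arrays with siYAP2 and at 8.23 or higher elsewhere.

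Other nucleoside transporters (5 genes), other adenosine and P2 nucleotide receptors (16 measured) and channels and transporters of ATP release (13 measured) had 0 genes that passed in limma after YAP, TAZ or combined knockdown or between paired and TAZ knockdown. Of all genes, 0.747% to 2.59% passed in these 4 comparisons. At an unadjusted p under 0.05 in limma the 4 comparisons counted 0 transporters in each, 1 to 2 receptors and 2 to 3 release genes. The share of all genes at that p was 9.58% to 11.6%. SLC29A3, a transporter of lysosomes, read 8.96, 8.87 and 8.78 in control, 9.57, 9.40 and 7.84 with siTAZ2, and 9.38 and 9.34 with siTAZ3, so that the array that stood apart was the lowest of the 8. With all arrays SLC29A3 differed from control by 0.28 for TAZ knockdown (SE 0.27, limma adjusted p = 0.819), and without that array by 0.55 (SE 0.085, limma adjusted p = 0.00124). Its YAP value of 0.39 and its combined value of 0.47 were the same in both fits and passed in the second (limma adjusted p = 0.00795 and 0.00237). There SLC29A3 passed with siYAP1 (0.50, limma adjusted p = 0.00668) and siTAZ2_siYAP1 (0.61, limma adjusted p = 0.000547). It did not pass with siYAP2 (0.29, limma adjusted p = 0.0826) or siTAZ3_siYAP2 (0.32, limma adjusted p = 0.0935). SLC29A4, another transporter, read 8.29, 8.37 and 7.37 with siTAZ2, the last on the same array, and its TAZ value went from 0.27 (limma adjusted p = 0.681) to 0.43 (limma adjusted p = 0.0275). In the second fit SLC29A4 passed with siTAZ2 (0.70, limma adjusted p = 0.00302) and not with siTAZ3 (0.16, limma adjusted p = 0.709). Of the receptors P2RY6, which responds to UDP, rose after TAZ knockdown without that array (0.30, limma adjusted p = 0.0312), and of the release genes 0 passed there. P2RY6 then passed with siTAZ2 (0.47, limma adjusted p = 0.00524) and not with siTAZ3 (0.13, limma adjusted p = 0.632). In that fit 2.35% of all genes were higher after TAZ knockdown. Of 17 measured cyclic AMP response genes, 0 passed after YAP or TAZ knockdown or between paired and TAZ knockdown. At an unadjusted p under 0.05 in limma these counted 0 (9.58% of all genes), 1 (11.4%) and 2 (9.99%). After combined knockdown 1 rose, where 1.29% of all genes were higher. This was PPARGC1A, a co-activator of mitochondrial and gluconeogenic genes, at 0.62 (SE 0.11, limma adjusted p = 0.0056). The PPARGC1A control arrays read 8.60, 8.55 and 8.80 and the 5 paired arrays read 9.17 to 9.42, without overlap, as in 5.26% of all genes. After TAZ knockdown PPARGC1A differed by 0.40 (limma adjusted p = 0.0945), and by 0.47 (limma adjusted p = 0.0091) once the array labelled siTAZ2 replicate 3, with a PPARGC1A value of 8.66, was left out.

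Genes whose pattern was most like that of NT5E were sought by Pearson correlation over the 19 arrays among the 3213 genes with 1 symbol and group means spanning at least 0.5, as a description over arrays that share groups, control arrays and normalization. FAM114A1 was nearest (r = 0.945), followed by ABCA1, the cholesterol exporter (0.866), SPOPL, a ubiquitin ligase adaptor (0.852), TTC39B (0.851) and MTF2, a Polycomb accessory protein (0.85). FAM114A1 had group means of 8.75 in control, 8.80 with siYAP2 and 9.11 with siYAP1, and 9.16 to 9.27 in the 4 groups with a TAZ siRNA, the same order of control, siYAP2 and siYAP1 as NT5E. The most unlike were VCL, which encodes the adhesion protein vinculin (r = -0.846), the replication factor gene GINS1 (-0.816) and SRXN1, which encodes sulfiredoxin (-0.806). Without the array labelled siTAZ2 replicate 3 the correlation was 0.943 for FAM114A1 and lay between 0.817 and 0.882 for the other 4 alike genes. Of the 5 genes, 3 were also among the 5 nearest by Spearman correlation or over the 7 group means.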

How the data were processed

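Gene expression was measured in HepG2 cells by 1-colour Affymetrix arrays hybridised with biotin-labelled cRNA, on 19 arrays in 7 groups taken from the labels. The deposited values are log2 intensities made by the authors with RMA (background correction, quantile normalization and probe summary), per the submitters' processing notes. Neither its version nor the probe set definition is stated there. All 19 columns held the same sorted values, so a shift common to most genes is not visible. The table held 25582 probe sets, of which 24244 carried a gene name, and 24195 names matched RefSeq. For 3 symbols with 2 probe sets the brighter was kept, which left 25579 genes. Precision is limited by how many arrays each group has.

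The limma package (version 3.58.1, R version 4.3.3) fitted every gene with 7 group means and no block. Comparisons of YAP, TAZ and combined knockdown average both siRNAs or pairs. P-values are two-sided and Benjamini-Hochberg adjusted over all genes, with a threshold of 0.05. In a simulation of YAP knockdown against control over 25579 genes the fit recovered 77 of 100 genes shifted by 0.5 and 97 of 100 shifted by 1 on the log2 scale, with 12 false calls. The 8 genes and the gene lists were chosen with earlier results of these data known. Outside the 8 genes, the text names the genes of the purine and cyclic AMP lists that passed in one of the 4 comparisons of means and the genes most like NT5E by the stated rule. Markers, listed targets, and genes that passed without siTAZ2 replicate 3 alone were chosen after their values were seen, as was that repeat of the list counts. Same-numbered arrays of different groups did not consistently deviate together (22 pairs within a deposit, correlations of -0.281 to 0.235, 4 above 0.1), so the numbers were not used as pairs. The check cannot exclude pairing, since in groups of 2 arrays the deviations from the group mean are exact opposites. Alternatives were an intensity trend, a filter on dim genes, centring on the array median, fits of only the groups compared, a replicate block, array weights, the mean of probe sets, and leaving out each array.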

Additional observations from a re-analysis of the deposited data

How the results depend on the processing

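Of 2431 recomputed differences that carry a test, 2412 stayed on their side of the threshold, 0 lost a call, 19 gained one and 0 changed the direction of a called value. None of these differences passed with the settings reported, so a call could be gained but not lost. NT5E has no test against control or between paired and TAZ knockdown, so the 7 other genes are counted there. Of these, 0 passed with the settings reported. For YAP knockdown 1 passed with only the groups compared, 1 with the replicate block, 1 with array weights and 0 to 1 when an array was left out. For TAZ knockdown it was 1 with array weights and 0 to 1 without an array, and for combined knockdown likewise 1 and 0 to 1. For siYAP2 it was 1 with only the groups compared, 1 with the replicate block, 1 with array weights and 0 to 1 without an array. For siTAZ3 it was 1 with array weights, and for siTAZ3_siYAP2 1 with the replicate block and 0 to 1 without an array. The gene was ADORA2B each time, and the array left out was siTAZ2 replicate 3, or siTAZ2 replicate 2 for TAZ knockdown. Between siYAP1 and siYAP2, where all 8 genes are counted, NT5E passed (1 against 0) with only the groups compared, with the replicate block and with array weights, and 0 to 1 passed without an array. The NT5E difference for siTAZ2, given without a test, went from 0.95 to 0.72 without siTAZ2 replicate 3. Of the 5 genes most like NT5E, 3 were kept over group means, 3 by Spearman correlation and 3 to 5 without an array.

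Counts over all genes moved more. They ranged, without an array and under the other settings, from 240 to 1144 and from 392 to 1303 for YAP knockdown (443), from 207 to 1199 and from 62 to 1772 for TAZ knockdown (503), from 357 to 1578 and from 295 to 1579 for combined knockdown (662), and from 57 to 331 and from 23 to 376 for combined against TAZ knockdown (191). Over all alternatives, counts for single groups against control ranged from 126 to 632 for siYAP1 (225), from 612 to 2374 for siYAP2 (952), from 2 to 2382 for siTAZ2 (606), from 83 to 1053 for siTAZ3 (296), from 314 to 1943 for siTAZ2_siYAP1 (624), from 313 to 1458 for siTAZ3_siYAP2 (681). They ranged from 812 to 2171 between the YAP siRNAs (1236), from 0 to 1553 between the TAZ siRNAs (208), from 317 to 1503 between the pairs (635). With the replicate block, which the reported fit did not use, the combined calls of DCK, ENPP1, ENPP3 and PPARGC1A and the TAZ calls of ENPP1 and AK6 were lost. The causes were not tested. Dim genes such as ENTPD1, ADORA2A and ADORA3 lie where these arrays resolve little.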
